A study of Saccharomyces cerevisiae with 6 samples.

Results

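The genes described here encode 45 assembly factors of the large (60S) ribosomal subunit of the budding yeast Saccharomyces cerevisiae. They were taken from a fixed list of gene names and found on the array by systematic name, and all 45 were among the 6256 genes with a probe. The strains were F3, which withstands sulfur dioxide and came out of an evolutionary engineering selection, and the reference strain it was set against. Each strain was represented by 3 cultures in minimal medium, which the sample titles call log phase. They were shaken at 150 rpm and 30 °C and taken at an OD600 near 1.0. Every culture was measured on 1 single-colour array. No sulfite was listed for either strain at harvest. F3 is a single selected strain, and the sources used here give neither its mutations nor the genotype of the reference.

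The large subunit is built around its ribosomal RNA in the nucleolus, where assembly factors bind, fold, cut and modify the precursor. The particle then moves through the nucleoplasm, is exported through the nuclear pore and sheds its last factors in the cytoplasm. In yeast the genes of these factors belong to the ribosome biogenesis regulon, which is known to be transcribed in step with growth and to be repressed in stress. The list holds 40 nucleolar factors and 5 that act in late nuclear steps and export (ARX1, ALB1, BUD20, NOG2 and SDA1).

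All values below are levels on the log2 scale, meaning the log2 of the processed spot signal minus the 75th percentile of the same array, and differences are F3 minus reference. The 75th percentile of the signal (in intensity units) lay between 8314 and 9534 in F3 and between 2791 and 4973 in the reference. Every member was well above background on all 6 arrays, so none was lost to the filter on dim probes, and no gene probe was saturated. F3 and reference arrays were scanned 2.62 years apart on different slides, so scan and strain cannot be told apart. All 3 F3 arrays, and none of the reference arrays, had a negative control signal out of range and a spot grid not marked as good. The part of these marks in the differences was not tested. Scaled to 7 spike-in RNAs instead, every difference moved up by 1.71, so a gene lower by less than that turned to higher in direction. The calls over all genes were then 5092 higher and 255 lower, against 2467 higher and 2275 lower with the 75th percentile, and the median of all genes was 1.76 in place of 0.05.

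All 45 assembly factors were lower in F3 relative to the 75th percentile, and 44 of them with spike-in scaling as well, where NOP16 was at 0.03. By limma's moderated test, with Benjamini-Hochberg adjustment over all 5948 tested genes, 45 of 45 were called lower at an adjusted p under 0.05, where 38.2% of all tested genes were called lower. The same 45 were lower by at least 2-fold, against 16.2% of tested genes, and the largest adjusted p was 3.0e-06. Levels of the strains did not overlap for any of them, as was the case in that direction for 39.5% of tested genes. At least 4-fold, 44 of the 45 were lower, against 6.05% of tested genes. Differences of at least 8-fold (a log2 difference of −3 or below) were called for 19 of the 45, against 1.75% of tested genes. The median difference was −2.88, or 7.37-fold lower, beside a median of 0.05 over all tested genes. Individual folds ran from 3.2-fold lower for NOP16 to 47.5-fold lower for SDA1, which had the lowest F3 signal of the members. With spike-in scaling 39 of 45 were called lower, where 4.29% of tested genes were.

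**Figure D1:**
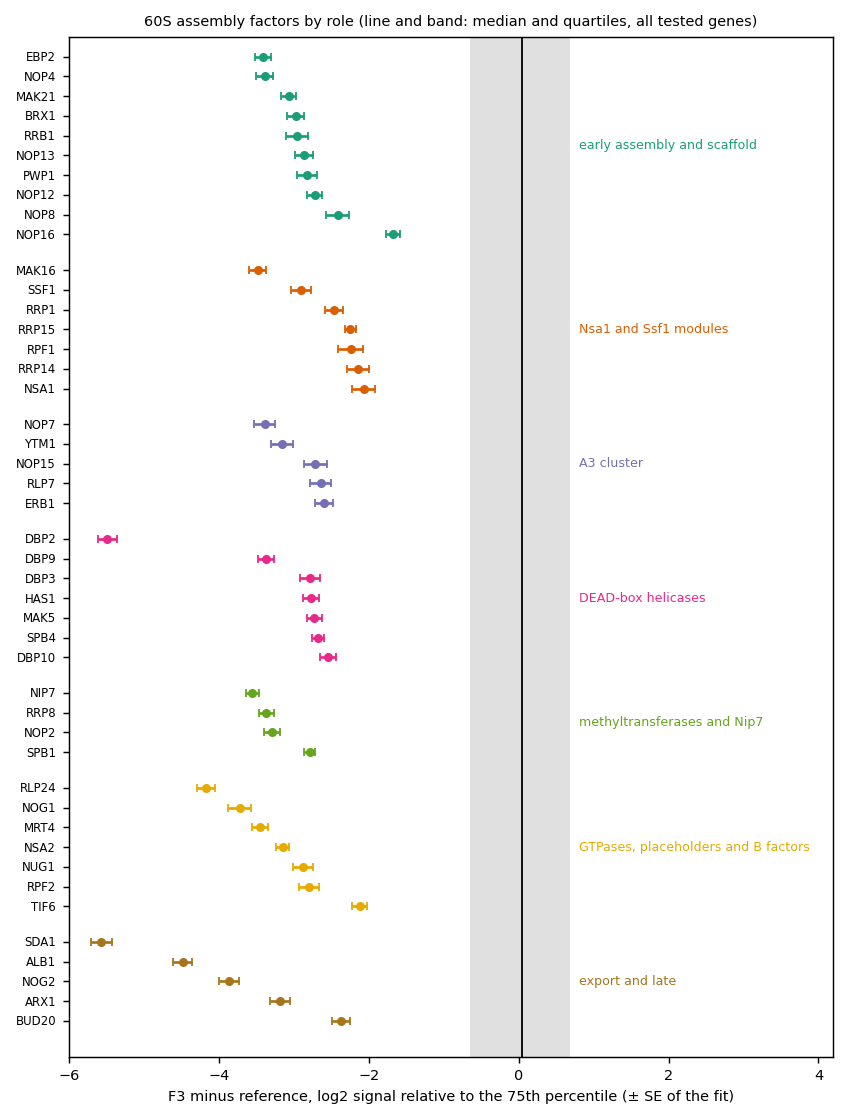
Difference between F3 and the reference in log2 signal relative to the 75th percentile (horizontal axis, points with the SE of the fit) for the 45 assembly factors, grouped by role. All points lie at −1.68 or below, to the left of the band that marks the quartiles of all tested genes (−0.63 to 0.67). With spike-in scaling all points move up by 1.71 and NOP16 lies at 0.03.

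Most members lay in a narrow range, with a few far below it. The quartiles of the 45 differences were −3.39 and −2.64. SDA1 and DBP2 stood lowest, with ranks 6 and 7 from the lowest difference among the 5948 tested genes. NOP16 ranked 477 from the lowest and was the highest of the members. Gene length, which ran from 501 bases for BUD20 to 3078 for MAK21, was only weakly related to the difference (Spearman's rho −0.17 across the 45 genes, a description, since genes are not independent replicates).

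**Figure D2:**
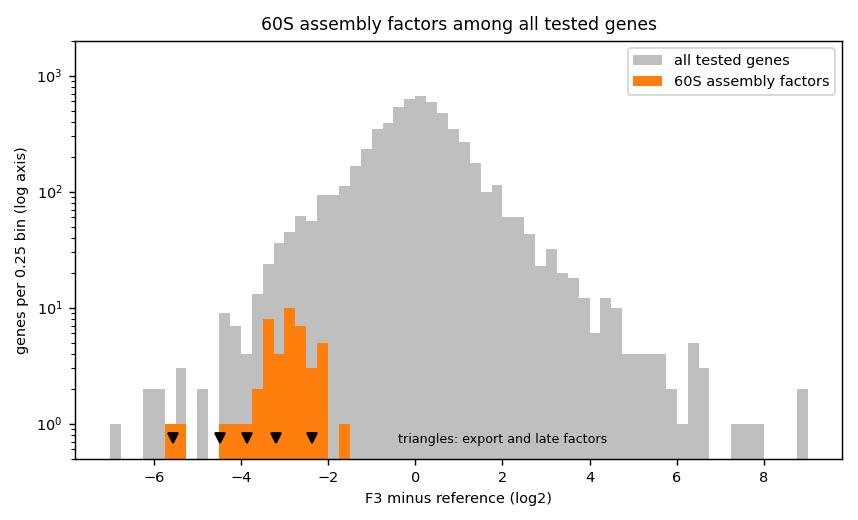
Number of genes per bin of 0.25 (vertical log axis) by the log2 difference between F3 and the reference, for all 5948 tested genes (grey) and the 45 assembly factors (orange). The assembly factors span −5.57 to −1.68, and the triangles that mark the 5 export and late factors are spread over most of that range.

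The export and late factors had the widest spread of any role. SDA1, a nuclear factor needed for late maturation and export of the large subunit, had levels of −6.20, −5.64 and −5.73 in F3, against −0.31, −0.22 and −0.33 in the reference. That is a difference of −5.57 ± 0.14 (SE, adjusted p = 1.1e-08). Before any scaling its signal in F3 was 129, 182 and 157 intensity units, the lowest of the 45 members, against 2246, 4192 and 3949 in the reference. Its size therefore depends on how background is taken off. With another background correction (normexp) the difference of SDA1 was −5.01 ± 0.12 (SE), and DBP2 at −5.34 was then the lowest member. The gap of SDA1 between the highest F3 array and the lowest reference array, 5.31, was the widest of the 45.

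ALB1 encodes a small shuttling protein that binds the export factor Arx1. Its levels were −2.79, −2.31 and −2.60 in F3, against 1.77, 2.06 and 1.91 in the reference, a difference of −4.48 ± 0.13 (SE, adjusted p = 2.2e-08). ARX1 itself had −1.78, −1.32 and −1.50 in F3, against 1.76, 1.76 and 1.44 in the reference (−3.19 ± 0.14 SE, adjusted p = 1.2e-07). The partners therefore fell by unequal amounts, and the difference of ALB1 minus that of ARX1 was −1.30. Relative to its reference mean, the gap between them was −1.28, −1.25 and −1.37 on the F3 arrays, against −0.25, 0.04 and 0.21 on the reference arrays.

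NOG2, a GTPase whose release from the particle precedes export, had levels of −2.28, −1.95 and −2.05 in F3, against 2.03, 1.58 and 1.70 in the reference (−3.86 ± 0.13 SE, adjusted p = 4.2e-08). BUD20, a zinc finger protein that helps the particle through the pore, had −0.34, 0.01 and −0.15 in F3, against 2.16, 2.39 and 2.06 in the reference. Its difference of −2.37 ± 0.12 (SE, adjusted p = 2.8e-07) was the smallest of the 5 and ranked 39 among the 45.

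Set beside each other, the 5 export and late factors had a median difference of −3.86 and the 40 nucleolar factors one of −2.84. The ranges overlapped: −5.57 to −2.37 for the export and late factors, and −5.49 to −1.68 for the nucleolar factors. Array by array, the median of the export and late factors relative to their reference means was −4.05, −3.72 and −3.82 in F3, and that of the nucleolar factors −3.06, −2.65 and −2.84. With 5 genes in the smaller class this is a description, and the difference between the classes was not tested.

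**Figure D3:**
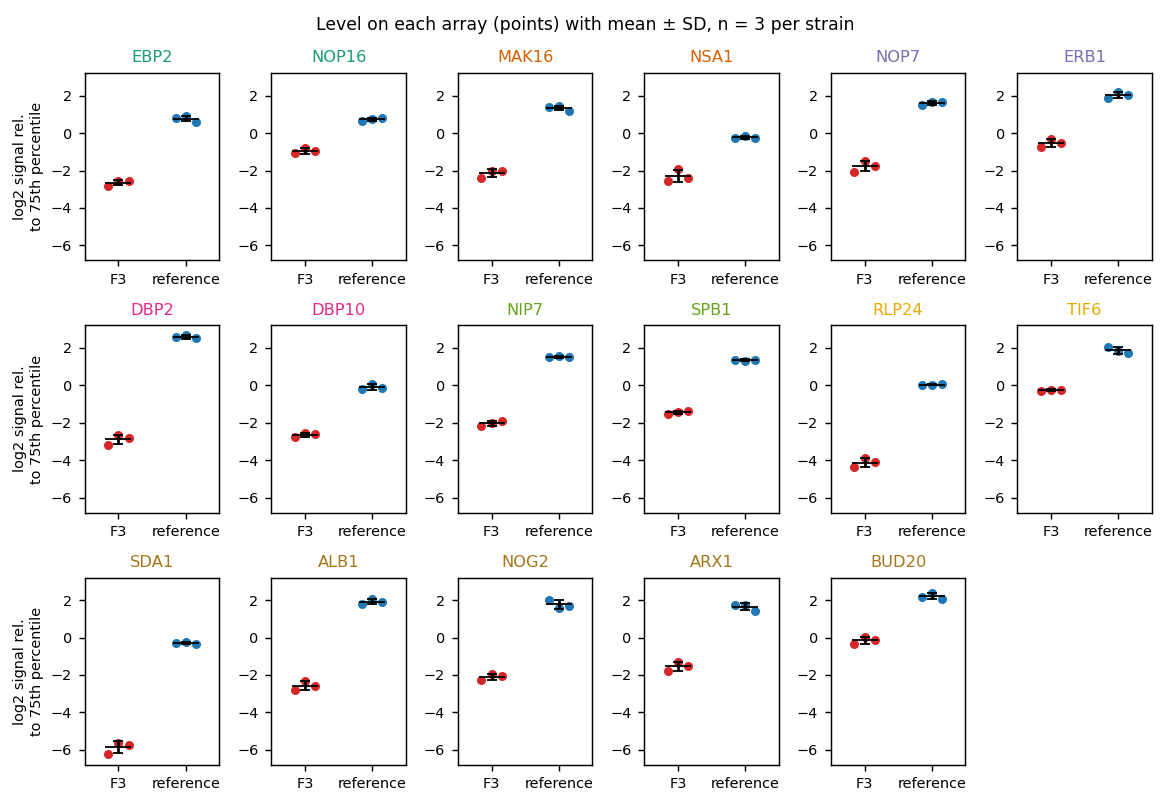
Level on each array (points, log2 signal relative to the 75th percentile) with mean ± SD of 3 arrays per strain, F3 on the left and the reference on the right of each panel, for the 5 export and late factors and the most and least lowered member of every other role. F3 and reference points are apart in every panel, by 5.31 for SDA1 and by 1.41 for NOP16.

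Early assembly and scaffold factors, which bind the young precursor and help to fold its RNA, were all lower, with a median difference of −2.91 over 10 genes. EBP2, a nucleolar scaffold protein, had levels of −2.82, −2.54 and −2.57 in F3, against 0.81, 0.90 and 0.62 in the reference (−3.41 ± 0.11 SE, adjusted p = 2.8e-08). BRX1, its binding partner, fell by 2.97 (SE 0.11). NOP4, an RNA-binding protein, fell by 3.39 (SE 0.11), MAK21, which pairs with Noc2 on the early particle, by 3.07 (SE 0.10) and RRB1, the chaperone of ribosomal protein Rpl3, by 2.95 (SE 0.15). Lower as well were the RNA-binding protein NOP13 (−2.86), PWP1 (−2.83), NOP12, which acts with it in 5.8S RNA folding (−2.72), and NOP8, of the earliest particles (−2.41).

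NOP16, a constituent of the early nucleolar particle, moved least of all 45. Its levels were −1.09, −0.77 and −0.97 in F3, against 0.64, 0.73 and 0.83 in the reference (−1.68 ± 0.10 SE, adjusted p = 7.2e-07). Its processed signal before scaling, 4489, 5305 and 4258 intensity units in F3 against 4352, 8131 and 8832 in the reference, overlapped between strains. The unscaled signal of NSA1 overlapped as well (2415 in F3 replicate 2, against 2362 in reference replicate 1). NOP16 was lower with the 75th percentile, median and quantile scaling and in the authors' deposited values, and with spike-in scaling it was at 0.03 and not called (adjusted p = 0.912).

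The Nsa1 and Ssf1 modules, protein groups of the nucleolar particle, had the smallest median difference of the roles (−2.25 over 7 genes). MAK16 stood apart from the other members of its module. Its levels were −2.38, −2.01 and −2.04 in F3, against 1.38, 1.44 and 1.20 in the reference (−3.48 ± 0.12 SE, adjusted p = 3.6e-08). NSA1 had −2.56, −1.91 and −2.39 in F3, against −0.24, −0.13 and −0.28 in the reference (−2.07 ± 0.15 SE, adjusted p = 2.9e-06), and RRP1 and RPF1 fell by 2.46 and 2.24. In the Ssf1 module SSF1 fell by 2.90 (SE 0.13), RRP15 by 2.25 (SE 0.07) and RRP14 by 2.14 (SE 0.15). Of these genes, 4 are among the 6 members that lost their call with spike-in scaling: RRP15 (−0.54, adjusted p = 0.0768), RPF1 (−0.53, adjusted p = 0.0809), RRP14 (−0.43, adjusted p = 0.153) and NSA1 (−0.36, adjusted p = 0.24).

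The A3 cluster consists of factors needed to trim the 5′ end of the 5.8S precursor, and its 5 genes fell within a span of less than 1 log2 unit. NOP7, the scaffold of the Nop7, Erb1 and Ytm1 complex, had levels of −2.05, −1.51 and −1.75 in F3, against 1.51, 1.69 and 1.66 in the reference (−3.39 ± 0.13 SE, adjusted p = 7.5e-08). ERB1 had −0.76, −0.34 and −0.55 in F3, against 1.89, 2.19 and 2.06 in the reference (−2.59 ± 0.12 SE, adjusted p = 2.1e-07), and YTM1 fell by 3.16 (SE 0.15). RLP7 and NOP15, which bind the spacer RNA next to the 5.8S sequence, fell by 2.64 (SE 0.14) and 2.71 (SE 0.16).

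DEAD-box helicases, enzymes that use ATP to remodel RNA, were all lower, and DBP2 was far below the rest. DBP2, known for work on messenger RNA as well as on ribosomal RNA, had levels of −3.17, −2.68 and −2.82 in F3, against 2.59, 2.70 and 2.50 in the reference (−5.49 ± 0.13 SE, adjusted p = 7.8e-09). DBP10 had −2.78, −2.57 and −2.58 in F3, against −0.22, 0.09 and −0.16 in the reference (−2.55 ± 0.11 SE, adjusted p = 1.0e-07). The others lay between these: DBP9 (−3.37 ± 0.11 SE), DBP3 (−2.79), HAS1 (−2.77), MAK5 (−2.72) and SPB4 (−2.68). Without DBP2, the helicases spanned less than 1 log2 unit.

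Among the methyltransferases of the large subunit RNA and Nip7, NIP7 and SPB1 marked the ends of the range. NIP7, the binding partner of the methyltransferase Nop2, had levels of −2.18, −2.02 and −1.91 in F3, against levels between 1.49 and 1.56 on the 3 reference arrays (−3.55 ± 0.09 SE, adjusted p = 9.8e-09). SPB1, which methylates a ribose of the catalytic centre, had −1.53, −1.41 and −1.37 in F3, against 1.36, 1.31 and 1.37 in the reference (−2.79 ± 0.08 SE, adjusted p = 1.5e-08). The base methyltransferases NOP2 and RRP8 fell as well (−3.29 ± 0.11 SE and −3.37 ± 0.10 SE). All 4 were called lower with spike-in scaling too, at −1.84 to −1.08, where 4.29% of all tested genes were.

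The GTPases, placeholder proteins and factors of later nucleolar processing had a median difference of −3.15 over 7 genes. RLP24, which holds the site of ribosomal protein Rpl24 until the cytoplasm, had levels of −4.38, −3.90 and −4.12 in F3, against 0.02, 0.03 and 0.08 in the reference (−4.17 ± 0.12 SE, adjusted p = 1.7e-08). NOG1, a GTPase that binds beside Rlp24, fell by 3.72 (SE 0.15), and so did NUG1, a GTPase of the nucleus (−2.88 ± 0.13 SE). Also lower were MRT4, the placeholder of the stalk protein P0 (−3.45 ± 0.11 SE), NSA2, which joins before spacer cleavage (−3.15 ± 0.09 SE), and RPF2, which brings in the 5S RNA with Rrs1 (−2.80 ± 0.13 SE). TIF6, which keeps the subunits from joining too soon, was the least lowered here. Its levels were −0.31, −0.23 and −0.24 in F3, against 2.03, 1.86 and 1.70 in the reference (−2.12 ± 0.09 SE, adjusted p = 1.5e-07). With spike-in scaling TIF6 was at −0.41 and not called (adjusted p = 0.174).

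Within F3 the members moved up and down together between cultures. Replicate 1 had the lowest F3 level for 45 of 45 members, where it was the lowest for 37.5% of all tested genes and for 67.4% of the genes called lower by at least 2-fold. Replicate 2 had the highest for 40 and replicate 3 for 5. The median member was 0.22 below the F3 mean in replicate 1 and 0.18 above it in replicate 2. The median SD over the members was 0.21 in F3, against 0.11 in the reference, while over all tested genes it was 0.09 in F3 and 0.11 in the reference. Reference arrays were less uniform: the lowest level was in replicate 3 for 31 members, in replicate 1 for 12 and in replicate 2 for 2, and the highest was in replicate 2 for 29, in replicate 1 for 12 and in replicate 3 for 4. These shifts are small beside the gap between the strains, of which the smallest was 1.41 and the median 2.56. The cause was not tested.

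**Figure D4:**
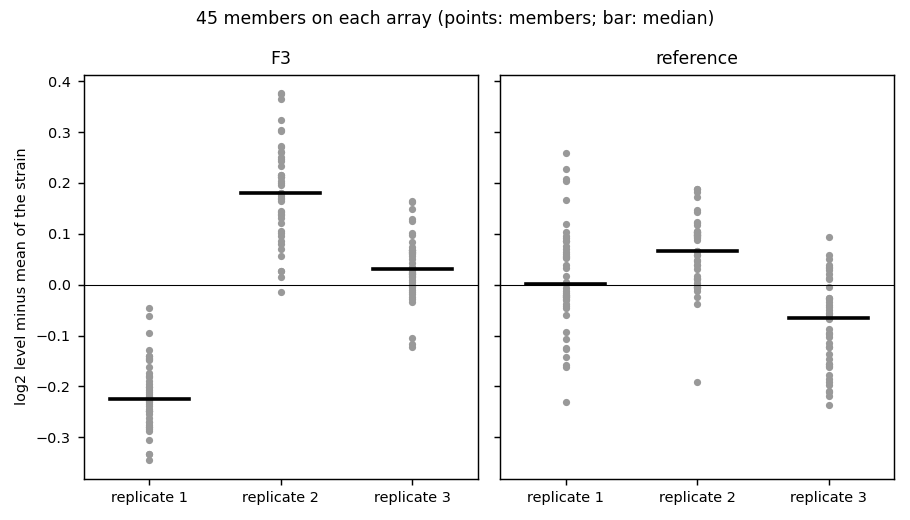
Level of each of the 45 assembly factors on each array minus its mean over the 3 arrays of the strain (log2), with the median as a bar, F3 on the left and the reference on the right. All F3 replicate 1 points lie below 0, with a median of −0.22, and the reference medians lie between −0.07 and 0.07.

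Other factors of the same pathway were examined through lists that do not overlap with the 45. Of 42 such factors, 40 were called lower, 1 higher and 1 in neither direction, with a median difference of −2.11. Over all tested genes 38.2% were called lower. With spike-in scaling 18 of the 42 were called lower and 7 higher. Of all tested genes, 4.29% were then called lower and 5092 of 5948 higher, with a median of 1.76. All 16 further nucleolar factors were lower, from CGR1, a nucleolar processing factor (−3.53 ± 0.10 SE), to URB2, of the earliest particles (−1.72 ± 0.13 SE), with a median of −2.20. Of the nucleoplasmic factors 10 of 10 were lower, with a median of −2.79. GRC3, the kinase that works with the spacer nuclease Las1, fell by 3.94 (SE 0.10). REA1, the large AAA ATPase also called MDN1, was at the other end (−0.41 ± 0.11 SE, adjusted p = 0.0102) and lay at 1.30 with spike-in scaling.

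Export factors outside the 45 had unequal differences. ECM1, an export factor of the large subunit, fell by 3.67 (SE 0.12) and NMD3, the adaptor to the exportin Crm1, by 2.76 (SE 0.12). MEX67 and MTR2 form a carrier that also exports messenger RNA. MEX67 fell by 0.37 (SE 0.09, adjusted p = 0.0042), and MTR2 differed by −0.12 (SE 0.08, adjusted p = 0.23). With spike-in scaling MEX67 and MTR2 were above the reference by 1.34 and 1.59, where the median of all tested genes was 1.76. ECM1 (−1.96) and NMD3 (−1.05) were then still called lower. For the 8 cytoplasmic factors the median was −1.64, with 7 called lower, where 38.2% of all tested genes were. REH1, the paralog of REI1, was called higher (0.25 ± 0.08 SE, adjusted p = 0.0202). Scaled to the spike-ins, 2 of the 8 cytoplasmic factors were called lower, 3 higher and 3 in neither direction. Chaperones of ribosomal proteins were lower in 4 of 4 cases, from SYO1 (−3.61), which carries Rpl5 and Rpl11, to SQT1 (−1.87), which protects Rpl10. Of these 4, 1 was called lower and 3 in neither direction with spike-in scaling, where 4.29% of all tested genes were called lower.

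**Figure D5:**
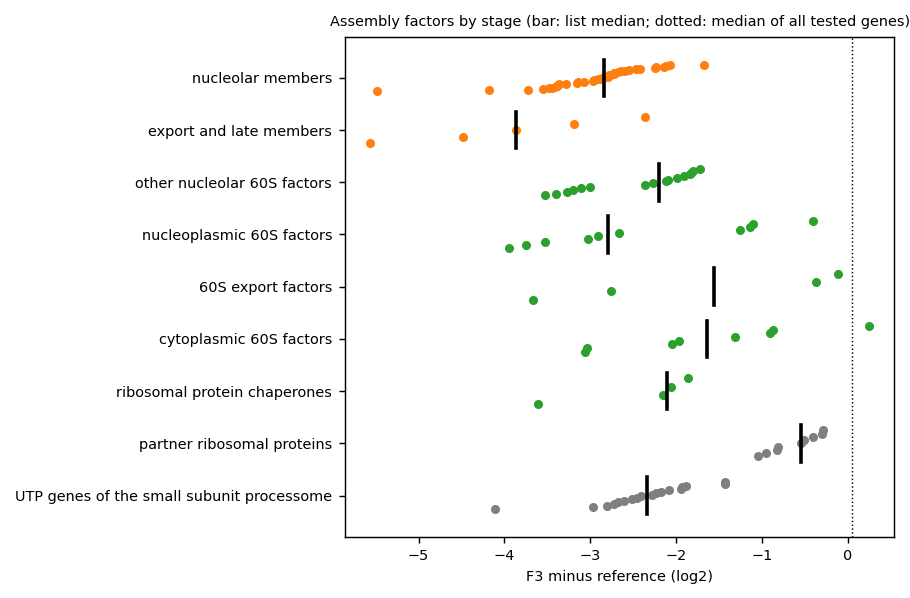
Log2 difference between F3 and the reference for each gene (points) of the 2 classes of members (orange), the other factors of the large subunit by stage (green) and 2 further lists (grey), with the list median as a bar. The nucleolar medians are −2.84 for the members and −2.20 for the other factors. The export and late members have the lowest median, −3.86, and the nucleoplasmic list has −2.79. The medians of the export and cytoplasmic lists outside the members, −1.56 and −1.64, lie nearer to the dotted median of all tested genes. The export list is split, with ECM1 and NMD3 at −3.67 and −2.76 and MEX67 and MTR2 at −0.37 and −0.12.

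Several cytoplasmic factors are known to release a member from the particle, and their differences are given beside those of the members, with no test of the gap between them. AFG2, the ATPase that removes Rlp24, fell by 1.97 (SE 0.10), beside −4.17 for RLP24. YVH1, which releases Mrt4, fell by 3.07 (SE 0.11), beside −3.45 for MRT4. RIA1, also called EFL1, and SDO1, which release Tif6, fell by 0.87 (SE 0.09) and 0.90 (SE 0.08), beside −2.12 for TIF6. Both RIA1 and SDO1 were above the reference with spike-in scaling (0.84 and 0.81), where the median of all tested genes was 1.76. REI1 and JJJ1, which act in the release of Arx1 and Alb1, fell by 3.04 (SE 0.12) and 1.31 (SE 0.09). AFG2 (−0.26) and JJJ1 (0.40) were called in neither direction with spike-in scaling. YVH1 (−1.36) and REI1 (−1.33) were still called lower, where 4.29% of all tested genes were.

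Ribosomal proteins that are placed, escorted or replaced by members fell much less than the members did. All 9 examined were called lower, where 38.2% of all tested genes were, with a median of −0.55 and only RPL7B past 2-fold (−1.05 ± 0.13 SE). With spike-in scaling all 9 were called higher (0.66 to 1.43), as were 5092 of the 5948 tested genes. All 9 then lay below the median of all tested genes, 1.76. RPL24A and RPL24B fell by 0.28 (SE 0.07) and 0.30 (SE 0.09), and the difference of RLP24 minus theirs was −3.89 and −3.87. RPP0 fell by 0.55 (SE 0.13), and the difference of MRT4 minus that of RPP0 was −2.90. RPL3 fell by 0.95 (SE 0.12), beside −2.95 for RRB1. Against RPL7A and RPL7B, the corresponding values of RLP7 were −2.24 and −1.59. RPL5, RPL11A and RPL11B, the protein partners of the 5S RNA, fell by 0.82, 0.51 and 0.82. Copies of these proteins can be near-identical, so their probes may not separate them.

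In 10 gene pairs the change of the gap between the strains was set against the spread of the arrays. The pairs were those of the preceding paragraph without RPL5, RPL11A and RPL11B, ALB1 with ARX1, SSF1 with its paralog SSF2, RPF2 with RRS1 and NOP2 with NIP7. In each pair the F3 arrays did not overlap with the reference arrays, and the exact permutation test (two-sided) gave p = 0.1, which is the smallest that 3 against 3 arrays allow (0.1 after adjustment over the 10). The difference of SSF1 minus that of SSF2 was −0.81, and RPF2 fell by 0.60 less than its partner RRS1 (−2.80 against −3.40). NOP2 and NIP7 differed by the least, 0.27.

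Beyond the large subunit, 18 UTP genes of the small subunit processome, the particle that starts assembly of the 40S subunit, were all called lower, with a median of −2.34 and a range of −4.11 to −1.43, while with spike-in scaling 9 were called lower and 9 in neither direction, with UTP20 and UTP22 at 0.28. The 81 ribosomal protein genes of the large subunit had a median of −0.88, with 77 called lower and 1 higher, while with spike-in scaling 0 were called lower, 59 higher and 22 in neither direction. Over all tested genes 38.2% were called lower. With spike-in scaling 4.29% of all tested genes were called lower and 5092 of 5948 higher. With spike-in scaling the medians were −1.17 for the 45 members, −0.63 for the UTP genes, 0.83 for the ribosomal proteins and 1.76 for all tested genes. Differences between these lists were not tested.

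The genes of known regulators of this regulon did not move one way. TOD6, a repressor that binds the promoter element PAC in ribosome biogenesis genes, fell by 3.68 (SE 0.16, adjusted p = 1.2e-07), whereas its paralog DOT6, also a repressor at PAC, rose by 0.58 (SE 0.10, adjusted p = 8.1e-04). STB3, a repressor that binds another element of these promoters, rose by 0.52 (SE 0.08). The activator SFP1 differed by 0.08 (SE 0.11, adjusted p = 0.51), and the kinase SCH9, which acts upstream of the repressors, by −0.28 (SE 0.11, adjusted p = 0.0385), with overlap between strains. With spike-in scaling SFP1, SCH9, DOT6 and STB3 were called higher (1.43 to 2.29) and TOD6 lower (−1.97). Of the 5948 tested genes, 5092 were then called higher and 255 lower, with a median of 1.76. These are transcript levels, and the activity of the proteins was not measured.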

How the data were processed

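Per the labels, total RNA of each culture was labelled with Cy3 (0.2 µg) for a single-colour Agilent array. The labels describe overnight growth in rich medium and the series design growth in minimal medium to the sampled density. By the series design, replicates come from separate cultures. Per the file headers, the authors' spot extraction used Agilent Feature Extraction, with 10.7.3.1 as its version (9.1 per the submitters' processing notes). The processed signal is an intensity from which the authors' software had taken off the background and a spatial trend of the array. The authors' deposited table holds log2 values centred on each probe's median. Its columns had medians between −0.0141 and 0.0110 and correlated with the scanner values centred likewise at r of 0.9877 or more, so scale and direction are known and the scaling between arrays is not.

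From these files, control spots were left out, each probe's 2 spots were averaged as log2 signals, and each array's 75th percentile was subtracted. Each gene has 1 probe. Genes well above background on at least 3 arrays were tested (5948, with 308 left out). Names came from the RefSeq table of the R64 assembly (5756 by locus tag, 23 by synonym, 477 kept from the files). No coordinates are given, since the build of the array is not given in the sources used here. The tests used limma (version 3.58.1, under R 4.3.3, lmFit and eBayes, two-sided) with no covariate. Only this fit was tried on simulated levels with known differences. Spot averaging, scaling and the filter on dim probes were not tested in that way. The number of arrays limits the precision. A change of all messenger RNA per cell is not seen by this scaling. Members, roles and lists were chosen with earlier results of these data known. Values on each array are given for the export and late factors and for the most and least lowered member of each other role. Other lists are named by their extremes, except export factors, ribosomal protein partners and regulators, which are named in full. Also named are the release factors, RRS1 and SSF2, which were chosen for their known link to members, and UTP22, for its direction with spike-in scaling. RPP1, a subunit of RNase P, was left out of the ribosomal proteins.

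Alternatives tried were normexp background correction (offset 50, on median spot signals, as the files used here hold no mean signal), quantile, median and spike-in scaling, the authors' values, other filters, a replicate block, slide as a random block and leaving out each array.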

Additional observations from a re-analysis of the deposited data

How the results depend on the processing

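With normexp background correction, quantile or median scaling, the authors' deposited values, no filter or a filter on all 6 arrays, all 45 members were called lower by at least 2-fold. The same held with a replicate block and with slide as a random block. No slide held arrays of both strains, so the slide block cannot take out a slide effect between the strains. Leaving out any 1 array gave the same count, and the median difference then ran from −2.94 to −2.74 for the nucleolar members and from −3.96 to −3.73 for the export and late members. Spike-in scaling moved the most: 39 members were called lower, 32 of them by at least 2-fold. Of the 5948 tested genes 255 were called lower, 164 of them by at least 2-fold. Of the other 42 factors of the large subunit 18 were called lower. The medians became −1.13 (nucleolar) and −2.15 (export and late). NOP16 changed sign to 0.0339. This scaling adds the same 1.71 to every difference, and its SE of 0.30 is shared by all genes, so its p-values are not independent across genes.

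Replicate numbers are shared by the strains, but the labels do not say that they pair cultures. Deviations of same-numbered arrays correlated with r of −0.15, 0.08 and −0.25 across genes, and 2 of 6 arrays correlated best with their own number. With the replicate block 45 members were called lower, and 2211 of all tested genes against 2275 without it.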

Other observations

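The 45 genes lie on 15 chromosomes, and no 2 of them are direct neighbours. Of the 85 tested genes that flank a member, 44 (51.8%) were called lower and 26 higher, with a median difference of −0.26 and quartiles of −0.93 and 0.35. Over all tested genes 38.2% were called lower. At least 4-fold lower were 9 of the 85, where 6.05% of all tested genes were, and these are named because their values were seen. They were LCP5 beside NSA2 (−2.92), BMT2 beside MAK5 (−2.70), GAR1 beside RPF1 (−2.58), GCD10 beside NOP2 (−2.54), NOC4 beside RRP15 (−2.37), NOP56 beside PWP1 (−2.36), ESF2 beside NOG2 (−2.26), PUS1 beside NIP7 (−2.18) and RFU1 beside BUD20 (−3.17). BUD20 itself had the smallest difference of the export and late factors (−2.37). These values were not compared with those of other gene neighbourhoods, and whether position plays a part was not tested.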
